A study of Mus musculus with 36 samples.

Results

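The comparison described here is that of brain RNA from DBA/2J mice kept awake for 6 h against brain RNA from DBA/2J mice left undisturbed in their home cages. Its arrays were taken by their labels, and they are 6, 3 per group, of the 36 arrays in the study. Mice were male and 12 to 13 weeks old, and came from inbred DBA/2J, C57BL/6J or AKR/J stock. Sleep deprivation began at light onset, which is Zeitgeber time (ZT) 0, and both groups were killed at ZT 6. The controls were thus taken at the same time of day, during the daily phase in which mice sleep most. Whole brain and liver were collected, and the labels name no drug, transgene or other treatment. Each array carried RNA pooled in equal amounts from 3 mice, so that an array is a pool, the spread between arrays is that between pools, and single mice cannot be told apart. Whole-brain RNA mixes all regions and cell types. In such bulk RNA, fewer cells of a type and less RNA per cell cannot be told apart.

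Prolonged waking is known to raise genes that follow neuronal firing in the cortex and hippocampus, among them immediate early transcription factors, Homer1 and Bdnf. It is also known to raise chaperones of the endoplasmic reticulum (ER), where secreted and membrane proteins fold; when unfolded proteins build up there, the unfolded protein response switches on the ER chaperone genes. Brain temperature is higher in waking than in sleep, and heat shock genes and cold-inducible RNA-binding genes are known to follow temperature in opposite directions.

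Values are log2 expression levels of probe sets, so that a difference of 1 is a 2-fold change. A probe set is a group of short probes against 1 transcript or, for some, several related ones. A probe set was called when limma's test gave a Benjamini-Hochberg adjusted p under 0.05 over all 45037 probe sets tested. Changes are sleep-deprived minus control with their standard error (SE) from limma, and group means are given with their standard deviation (SD, n = 3). Correlations between the 6 DBA/2J brain arrays over all probe sets lay between 0.983 and 0.997. Sleep-deprived array 2 had a narrower spread of values than the other 5 (SD over probe sets of 1.93 against 1.99 to 2.04). Control array 3 stood out in the actin probe sets that report on RNA quality, where the 3' level exceeded the 5' level by 0.98 (log2) against 0.59 to 0.71 on the other 5. Neuron markers were high on every array, with a mean level of 10.44 to 10.59 on the log2 scale over 13 genes, as fits the labelled tissue. Growth hormone (Gh) lay between 10.36 and 12.87 and prolactin (Prl) between 7.15 and 10.08, both highest in control array 1 and with the groups overlapping.

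Several ER and cytosolic chaperones, Homer1, Bdnf and Dio2 rose after sleep deprivation in DBA/2J brain, and Cirbp, the myelin gene Opalin and the clock output gene Dbp fell. Of 45037 probe sets 47 were called, which is 0.104%. They comprised 32 higher (0.0711%) and 15 lower (0.0333%), and 3068 passed an unadjusted p of 0.05. Among the 47 called, 43 carried 1 gene symbol and belonged to 23 genes that rose and 11 that fell. A further 3 carried several symbols and 1 carried none, and no gene is named for these. The sleep-deprived and control arrays did not overlap for any of the 47, against 5475 probe sets (12.2%) without overlap in all. The median change over all probe sets was -0.02, and the median SE was 0.12.

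The called genes differed in how far they depended on single settings. All 43 probe sets with 1 symbol kept their sign under every alternative tried, 17 or 18 for each. Those of Hspa5 (the brightest), Pdia6, Homer1 and Hspa1b (for each the one of largest change), Hspb1 (both) and Opalin passed under every alternative, and the other 36 failed under 1 or more. The count of 32 higher fell to 19, 19 and 17 without control array 1, 2 or 3 and to 16 and 15 without sleep-deprived array 1 or 3. It was 34 without sleep-deprived array 2 and 24 without both this array and control array 3. The count of 15 lower was 8 and 9 without control array 1 or 2, 7 and 8 without sleep-deprived array 2 or 3, and 10 without both doubted arrays.

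**Figure D1:**
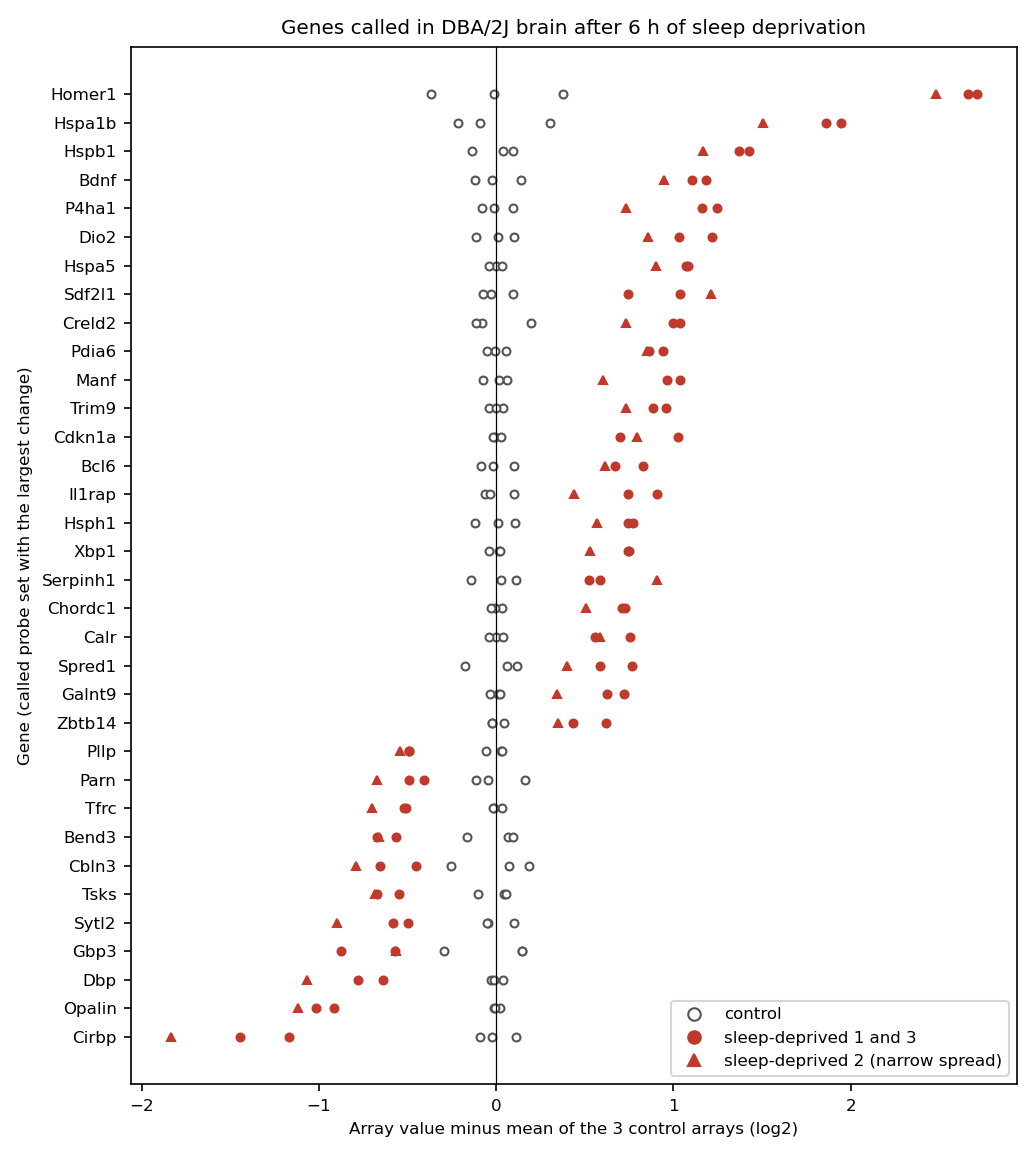
Values of each called gene on its called probe set of largest change, as the difference of each array from the mean of the 3 control arrays (log2, horizontal axis): control arrays as open circles, sleep-deprived arrays 1 and 3 as filled circles and array 2 as triangles. No gene shows overlap; Homer1 changed most upward (2.62) and Cirbp most downward (-1.48), and array 2 is the lowest sleep-deprived array for most genes, the exceptions being Sdf2l1, Serpinh1, Cdkn1a, Gbp3, Bend3 and Calr.

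Several chaperones and folding enzymes of the ER lumen rose. Of 34 genes of the ER chaperone and unfolded protein response list, 6 rose and 0 fell on their representative probe set (the one with the highest mean over the brain arrays). Of all 18193 genes 0.148% were called on that probe set, 0.0934% higher and 0.055% lower. The 6 were Hspa5, Sdf2l1, Creld2, Pdia6, Manf and Calr, and Xbp1 rose on another of its probe sets. The median change over the list was 0.17, against -0.03 over all genes, and 28 of the 34 estimates were above 0, as were 7368 of 18193 over all genes. The count of 6 was 2 in a fit of the 6 arrays alone, 5 without sleep-deprived array 2 and control array 3, 9 without these and 3 doubted arrays of the other strains, and 10 without the narrow-spread array of each strain.

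Hspa5 encodes BiP, the main HSP70 chaperone of the ER. Its levels were 9.48, 9.51 and 9.44 on the control arrays and 10.56, 10.38 and 10.55 on the sleep-deprived arrays (log2, arrays 1 to 3). The groups lay far apart, with sleep-deprived array 2 the lowest of its group. Hspa5 rose by 1.02 ± 0.08, or 2.03-fold (adjusted p = 3.342e-05), and its second probe set rose by 0.96 ± 0.12 (adjusted p = 0.0012). Pdia6, a protein disulfide isomerase, had levels of 7.91, 7.87 and 7.98 in controls and 8.86, 8.77 and 8.78 after sleep deprivation. Its SD was 0.05 in both groups, and it rose by 0.88 ± 0.08, or 1.85-fold (adjusted p = 5.436e-05). Creld2, an ER-resident protein induced by ER stress, was at 6.36, 6.33 and 6.63 in controls and at 7.44, 7.17 and 7.48 after sleep deprivation. It rose by 0.92 ± 0.13, or 1.90-fold (adjusted p = 0.0051), and did not pass without sleep-deprived array 3 (adjusted p = 0.0515).

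Calr encodes calreticulin, a calcium-binding chaperone of glycoproteins. All 3 of its probe sets rose, by 0.57 ± 0.08, 0.63 ± 0.08 and 0.61 ± 0.08 (adjusted p = 0.0040, 0.0010 and 0.0023). Each failed under 2 of 18 alternatives (adjusted p up to 0.3707, 0.1771 and 0.2329). On the brightest, the controls were at 10.40, 10.37 and 10.38 and the sleep-deprived arrays at 11.11, 10.82 and 10.93, so that the sleep-deprived pools were spread more widely than the controls. Sdf2l1, a partner of BiP in the ER lumen, rose by 1.00 ± 0.17 (adjusted p = 0.0288), from 5.64, 5.77 and 5.60 to 6.71, 6.88 and 6.42. It is among the few called genes for which sleep-deprived array 2 was the highest of its group, and it did not pass without that array (adjusted p = 0.1356), without sleep-deprived array 1 (0.1274) or without control array 1, 2 or 3 (0.1399, 0.0895 and 0.1688). Manf, a secreted ER stress protein, rose by 0.87 ± 0.13 (adjusted p = 0.0089), from 8.54 ± 0.07 to 9.41 ± 0.23, and gave adjusted p-values of 0.0675, 0.0687 and 0.0715 without sleep-deprived array 1, control array 2 or sleep-deprived array 3. Xbp1, a transcription factor of the unfolded protein response, rose by 0.67 ± 0.11 on 1 probe set (adjusted p = 0.0172), while its brightest probe set gave 0.66 (adjusted p = 0.0653). The call of Xbp1 was lost without any single array other than sleep-deprived array 2 (adjusted p = 0.0750 to 0.1106).

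The remaining 28 genes of the list were not called. Among them Pdia3 gave 0.72 (adjusted p = 0.1149), Pdia4 0.59 (0.0698), Dnajb11 0.55 (0.1600), Hsp90b1 0.51 (0.2527) and Dnajc3 0.41 (0.0656), all enzymes or chaperones of the lumen. The genes of the stress-transcription arm gave estimates near 0, with Atf4 at 0.03, Ddit3 at 0.08, Trib3 at -0.07 and Chac1 at -0.17 (adjusted p = 0.9694, 0.9133, 0.9537 and 0.8651). The genes of this paragraph were picked after their values were seen, to show both ends of the list.

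The promoters of the ER genes are shown because 4 of them share a sequence motif. The ER stress response element (ERSE), searched on both strands as CCAAT, any 9 bases and CCACG, is the site through which ATF6 and XBP1 are known to act. In the 250 bases before the transcription start it occurred in 37 of 32851 promoters (0.113%) and in 35 of 27025 genes (0.13%). Of the 34 called genes 32 had a promoter in the RefSeq table of the mouse assembly GRCm38.p6. A match was present in 4 of the 22 higher genes (Hspa5, Pdia6, Calr and Creld2) and in 0 of the 10 lower genes. Among the called genes of the ER list with a promoter it was present in 4 of 6. The list and the element both stand for the unfolded protein response, so this overlap is a description and not independent support. The share among the uncalled genes of the list was not counted. Each sequence below runs 5′ to 3′ on the gene's own strand and ends just before the start site, with the match in capitals; the reference genome is that of C57BL/6J, so DBA/2J may differ in single bases. For Calr and Creld2 the match lies on the opposite strand and is read here as its reverse complement. The match ends 46 bases before the start in Hspa5 (chr2:34771840-34772089, plus strand), 79 in Pdia6 (chr12:17266339-17266588, plus strand), 143 in Calr (chr8:84846932-84847181, minus strand) and 107 in Creld2 (chr15:88819396-88819645, plus strand).
Hspa5: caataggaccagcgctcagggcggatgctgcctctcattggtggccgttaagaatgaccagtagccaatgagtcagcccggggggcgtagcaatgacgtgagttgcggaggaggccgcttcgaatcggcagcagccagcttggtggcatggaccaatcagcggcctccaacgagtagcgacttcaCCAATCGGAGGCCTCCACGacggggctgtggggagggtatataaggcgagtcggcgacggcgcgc
Pdia6: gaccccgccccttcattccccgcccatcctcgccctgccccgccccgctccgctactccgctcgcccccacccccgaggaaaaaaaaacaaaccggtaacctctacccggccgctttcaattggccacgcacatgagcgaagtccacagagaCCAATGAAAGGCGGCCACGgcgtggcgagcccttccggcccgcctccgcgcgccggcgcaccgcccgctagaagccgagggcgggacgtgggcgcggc
Calr: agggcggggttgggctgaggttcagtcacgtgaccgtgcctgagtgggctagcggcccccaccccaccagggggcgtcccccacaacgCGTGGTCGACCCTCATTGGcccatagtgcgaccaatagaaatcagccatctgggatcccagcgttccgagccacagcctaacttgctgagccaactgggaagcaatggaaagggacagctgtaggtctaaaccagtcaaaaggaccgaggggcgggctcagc
Creld2: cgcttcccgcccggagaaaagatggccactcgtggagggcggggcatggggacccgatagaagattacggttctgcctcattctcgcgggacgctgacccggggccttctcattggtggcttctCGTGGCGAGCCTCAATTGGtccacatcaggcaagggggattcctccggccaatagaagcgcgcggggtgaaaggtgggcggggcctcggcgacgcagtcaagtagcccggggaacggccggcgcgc
A match is a description of these letters and not a bound site. A further 4 motifs were searched in the same way. Only exact matches to each pattern were counted, so sites that depart from it by a base were missed. A heat shock element (GAA, any 2 bases, TTC, any 2 bases and GAA) occurred in 0.466% of promoters and in 0 called genes, the cAMP response element (TGACGTCA) in 1.546% and in Dio2 alone, and a D-box (TTATGTAA) in 0.819% and in 0. The E-box (CACGTG) occurred in 6.021%, in Bcl6, Calr, Galnt9 and Hsph1 among the higher genes and in Bend3 among the lower.

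A few cytosolic heat shock genes rose as well, led by the inducible HSP70. Of 27 genes of the heat shock list 4 rose (Hspa1b, Hspb1, Hsph1 and Chordc1) and 0 fell. The list's median change was 0.32, and 25 of 27 estimates were above 0, against 7368 of all 18193 genes. In the upward direction 20 genes of the list had no overlap between groups, against 709 of all 18193 genes. The count of 4 was 1 in a fit of the 6 arrays alone, 2 without any 1 of control arrays 1, 2 and 3 and sleep-deprived arrays 1 and 3, 3 without sleep-deprived array 2 and control array 3, and 8 without the 5 doubted brain arrays of the study.

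Hspa1b encodes the stress-inducible cytosolic HSP70, and its probes may also detect the near-identical Hspa1a. On the probe set of largest change its levels were 5.41, 5.29 and 5.80 in controls and 7.45, 7.00 and 7.36 after sleep deprivation. It rose there by 1.77 ± 0.21, or 3.42-fold (adjusted p = 8.892e-04). Its brightest probe set went from 5.77, 5.46 and 5.71 to 7.56, 6.86 and 7.44 (1.63 ± 0.26, adjusted p = 0.0142) and the remaining one rose by 1.14 ± 0.19 (adjusted p = 0.0183). Both of the latter failed without any 1 of the 5 arrays other than sleep-deprived array 2 (adjusted p = 0.0601 to 0.1231). Hspa1a was represented by a probe set of its own, which gave 0.38 (adjusted p = 0.6965).

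Hspb1, the small heat shock protein HSP27, was at 7.42, 7.45 and 7.50 in controls and at 8.46, 8.37 and 8.66 after sleep deprivation. The control pools were nearly equal, and the gene rose by 1.04 ± 0.13, or 2.06-fold (adjusted p = 0.0022); its second probe set rose by 1.32 ± 0.15 (adjusted p = 5.345e-04). Hsph1, the HSP110 that recharges HSP70, rose by 0.67 ± 0.09 (adjusted p = 0.0030) and 0.70 ± 0.11 (adjusted p = 0.0097) on its called probe sets, the latter failing without sleep-deprived array 1 or 3 or control array 2 or 3 (0.0551 to 0.0794). Chordc1, a cochaperone of HSP90, rose by 0.65 ± 0.12, from 8.02 ± 0.03 to 8.67 ± 0.12 (adjusted p = 0.0439), and lost its call without any 1 of the arrays other than sleep-deprived array 2 (adjusted p = 0.1532 to 0.2303). Hspa8, the constitutive HSP70, gave 0.32 (adjusted p = 0.1152), with all 3 sleep-deprived arrays above the controls.

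**Figure D2:**
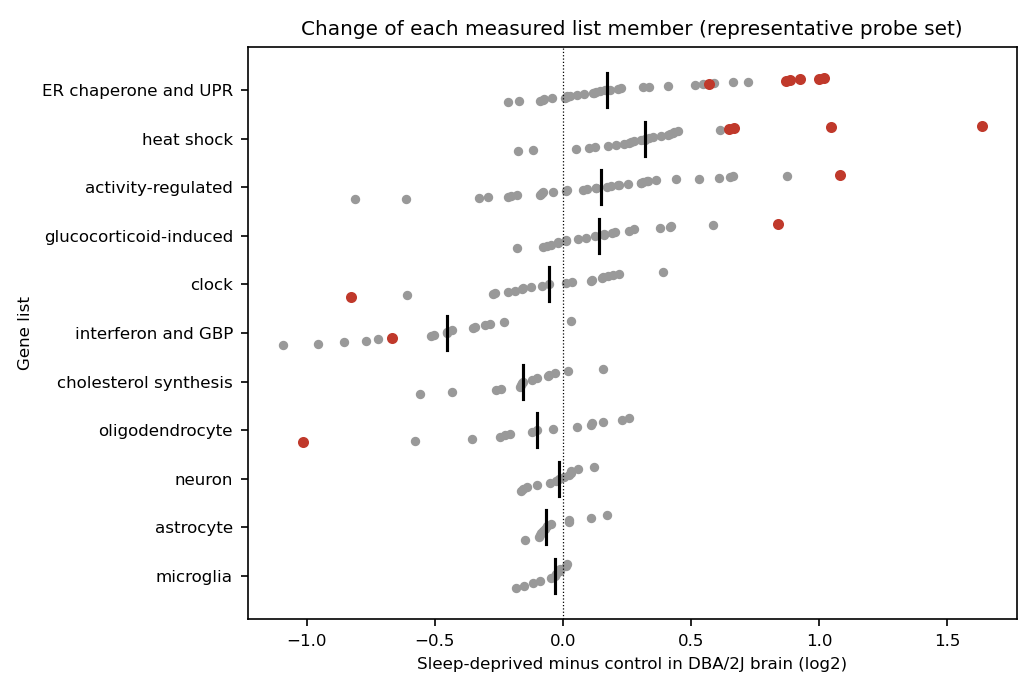
Changes in DBA/2J brain (log2, horizontal axis) of the measured members of 11 gene lists on their representative probe set, 1 point per gene, with called genes in red and the list's median as a black bar. The heat shock list has the highest median of the lists drawn (0.32) and the interferon and guanylate-binding protein (GBP) list the lowest (-0.45).

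Homer1 showed the largest change of any called gene, and Bdnf was the only other called gene of the activity-regulated list. Homer1 encodes a scaffold that links glutamate receptors to the postsynaptic density, and its short form, induced by activity, loosens that link. On the probe set of largest change its levels were 6.04, 5.68 and 6.43 in controls and 8.76, 8.53 and 8.71 after sleep deprivation. The control pools varied more than the sleep-deprived ones (SD 0.37 and 0.12), and the groups were separated by over 2 log2 units. The gene rose there by 2.62 ± 0.28, or 6.14-fold (adjusted p = 4.516e-04). On a second, dim probe set it rose by 1.02 ± 0.15, from 2.99, 3.10 and 2.89 to 4.19, 3.66 and 4.19 (adjusted p = 0.0069), and this call was lost without sleep-deprived array 1 (0.0628), control array 3 (0.0551) or sleep-deprived array 3 (0.0629). The other 4 probe sets gave 0.72, 0.55, 0.52 and, on the brightest, 0.33 (adjusted p = 0.4662, 0.5254, 0.0825 and 0.3992), none of them with overlap between the groups. Which transcript form each probe set detects was not determined here.

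Bdnf encodes the brain-derived neurotrophic factor, which is released by active neurons and acts on the receptor TrkB. It was at 6.58, 6.32 and 6.41 in controls and at 7.62, 7.39 and 7.54 after sleep deprivation, a rise of 1.08 ± 0.18, or 2.11-fold (adjusted p = 0.0201). The groups did not overlap, but its second probe set did overlap and gave 0.53 ± 0.17 (adjusted p = 0.4561). Bdnf failed without control array 1, 2 or 3 (adjusted p = 0.0601, 0.1328 and 0.1087) and without sleep-deprived array 1 or 3 (0.1209 and 0.0924). On the list of BDNF and Trk signalling, with 8 genes and a median of 0.09, no other gene was called: Vgf, a secreted neuropeptide precursor, gave 0.44 (adjusted p = 0.2173), and the TrkB gene Ntrk2 gave 0.12 (0.8725).

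The classical immediate early genes were not called in DBA/2J. Of the 36 activity-regulated genes, 24 estimates were above 0 and 12 below, with a median of 0.15, and Bdnf alone was called on its representative probe set. Fos, a subunit of the AP-1 transcription factor, was at 7.94, 7.18 and 7.64 after sleep deprivation and at 7.87, 7.60 and 7.93 in controls, a difference of -0.22 ± 0.20 (adjusted p = 0.9055). The groups overlapped, as they did for Arc, the activity-regulated cytoskeletal gene (0.25 ± 0.15), and for the transcription factors Egr1 (0.13 ± 0.10), Egr2 (0.19 ± 0.20) and Nr4a1 (-0.09 ± 0.12). Other members had sleep-deprived arrays all above the controls without passing: the AP-1 gene Fosl2 gave 0.87 ± 0.22 (adjusted p = 0.2247), the MAP kinase phosphatase Dusp6 0.66 ± 0.17 (0.2527) and Egr3 0.65 ± 0.19 (0.3658). Npas4, a neuronal transcription factor, was lower on all 3 sleep-deprived arrays (4.20 ± 0.18) than on the controls (5.01 ± 0.26), and its -0.81 ± 0.17 did not pass either (adjusted p = 0.1149). The count of called members was 0 without any 1 of the arrays other than sleep-deprived array 2, and 5 without the 5 doubted brain arrays.

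The same genes were set beside the other strains, which had their own controls. Fos was at 0.44 in C57BL/6J and 1.26 in AKR/J (adjusted p = 1.0000 and 0.0075), and its DBA/2J change was lower than that of AKR/J by 1.47 ± 0.28 on the log2 scale. Egr1 gave 0.33 and 0.89, with a DBA/2J minus AKR/J difference of -0.76 ± 0.14, and Nr4a1 gave 0.31 and 0.83, with a difference of -0.92 ± 0.17. Each of these differences had an adjusted p of 0.8392 over all probe sets, so none passed. Homer1 on its probe set of largest change gave 1.29 in C57BL/6J and 3.41 in AKR/J, and DBA/2J lay between them. Its difference was 1.33 ± 0.40 from C57BL/6J and -0.79 ± 0.40 from AKR/J (adjusted p = 1.0000 for both). Bdnf gave 0.32 in C57BL/6J and 0.95 in AKR/J.

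**Figure D3:**
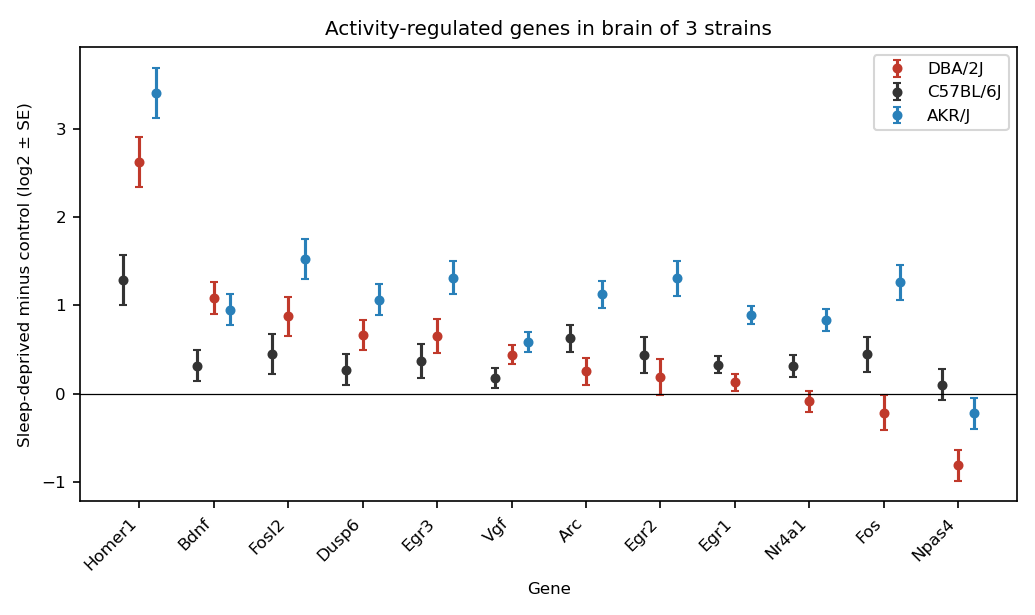
Change after sleep deprivation (log2, points) with the SE from limma (bars) for 12 activity-regulated genes in brain of DBA/2J, C57BL/6J and AKR/J, Homer1 on its probe set of largest change. For Fos, Egr1 and Nr4a1 the AKR/J estimates (1.26, 0.89 and 0.83) lie above those of DBA/2J (-0.22, 0.13 and -0.09), differences that did not pass over all probe sets.

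Several other genes with hormone, matrix or growth roles rose. Dio2, the deiodinase that makes active thyroid hormone in glia, was at 6.99, 6.87 and 7.08 in controls and at 8.20, 7.84 and 8.02 after sleep deprivation. It rose by 1.04 ± 0.14, or 2.05-fold (adjusted p = 0.0040), without overlap; another of its probe sets gave 0.85 and missed the threshold (adjusted p = 0.0653). It was the only called gene of 10 on the thyroid hormone list, whose median was 0.06. Dio2 lost its call in a fit of the 6 arrays alone and with a block for the replicate number (adjusted p at most 0.0599). P4ha1, the catalytic subunit of collagen prolyl 4-hydroxylase, went from 6.28, 6.11 and 6.18 to 7.44, 6.92 and 7.35, a rise of 1.05 ± 0.16 (adjusted p = 0.0075). Serpinh1, the collagen chaperone HSP47, rose by 0.67 ± 0.11 (adjusted p = 0.0201). These were the 2 called genes of 20 on a list of hypoxia and collagen hydroxylation genes with a median of 0.02. P4ha1 failed without sleep-deprived array 1 or 3 or control array 2 (adjusted p = 0.0662, 0.0629 and 0.0611), and Serpinh1 without control array 1 or 3 (0.0845 and 0.1566) or sleep-deprived array 2 or 3 (0.0851 and 0.0621).

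Cdkn1a, the cell-cycle inhibitor p21, rose by 0.84 ± 0.14, from 6.66, 6.69 and 6.65 to 7.69, 7.46 and 7.37 (adjusted p = 0.0242). Its control pools were nearly identical. The call was lost without any single array (adjusted p = 0.0587 to 0.1431). Cdkn1a was the 1 called member of 22 glucocorticoid-induced genes, whose median was 0.14; Sgk1, a kinase induced by glucocorticoids, gave 0.59 (adjusted p = 0.4298), and Fkbp5, a cochaperone of the glucocorticoid receptor, gave 0.16 (0.9049). Bcl6, a transcriptional repressor, rose by 0.70 ± 0.11 (adjusted p = 0.0117), and Spred1, an inhibitor of Ras signalling, rose by 0.59 ± 0.11 (0.0407). Trim9, a ubiquitin ligase of neurons, rose by 0.86 ± 0.11 (adjusted p = 0.0017), and Galnt9, which starts mucin-type glycosylation, by 0.56 ± 0.10 (0.0342). Il1rap, the shared subunit of the interleukin-1 receptor, rose by 0.70 ± 0.12 (adjusted p = 0.0365), and Zbtb14, a zinc finger protein, by 0.47 ± 0.09 (0.0478). For Bcl6, Trim9, Il1rap and Zbtb14 the called probe set was not the brightest, and the brightest gave 0.47, 0.22, 0.19 and -0.19, none of them called. For Zbtb14 the probe sets thus differed in sign. Trim9 passed without any single array. Il1rap, Spred1, Galnt9 and Zbtb14 each failed without any 1 of the arrays other than sleep-deprived array 2 (adjusted p = 0.0739 to 0.2499), and Bcl6 without control array 1 or 3 or sleep-deprived array 1 or 3 (0.0587 to 0.0923).

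A called probe set with 2 symbols fell most (-1.58, adjusted p = 4.319e-05). Among called probe sets with 1 symbol, Cirbp fell most. It encodes a cold-inducible RNA-binding protein. Its levels were 8.26, 8.06 and 8.13 in controls and 6.98, 6.32 and 6.70 after sleep deprivation. The groups were separated by more than 1 log2 unit, with sleep-deprived array 2 the lowest. Cirbp fell by 1.48 ± 0.14 on the log2 scale, which is 2.79-fold lower (adjusted p = 7.255e-05), and it passed under every alternative except the fit on the 6 arrays alone (adjusted p = 0.0538). It also fell in C57BL/6J (-1.02, adjusted p = 0.0101), in AKR/J (-1.40, 1.070e-04) and in DBA/2J liver (-1.31, 2.931e-06).

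Dbp, a transcription factor driven by the circadian clock, was the 1 called member of 21 clock genes. On its brighter probe set it was at 9.44, 9.46 and 9.51 in controls and at 8.69, 8.40 and 8.83 after sleep deprivation. It fell by 0.83 ± 0.11 (adjusted p = 0.0040) and, on the other probe set, by 0.76 ± 0.09 (adjusted p = 0.0014). The control pools were nearly equal on the brighter one. Neither passed in a fit of the 6 arrays alone (adjusted p = 0.1634 and 0.1118). The clock list had a median of -0.05, and its remaining members were not called, including the repressors Ciart (-0.61, adjusted p = 0.1149), Per1 (0.01, 0.9951) and Per2 (0.17, 0.9414) and the activator Arntl (0.39, 0.4246).

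Opalin encodes a membrane protein of myelinating oligodendrocytes. Its controls were at 7.72, 7.75 and 7.72 and its sleep-deprived arrays at 6.71, 6.61 and 6.81. It fell by 1.02 ± 0.09, which is 2.02-fold lower (adjusted p = 4.319e-05); a dim second probe set gave 0.13. Pllp, the myelin protein plasmolipin, fell by 0.51 ± 0.07 (adjusted p = 0.0045), from 8.55 ± 0.05 to 8.04 ± 0.03. It failed under 3 of 18 alternatives (adjusted p up to 0.3085). Opalin was the 1 called gene of 15 oligodendrocyte markers, whose median was -0.10. Of the 15 estimates 9 were below 0 and 6 above, among the latter Ermn at 0.23 (adjusted p = 0.8211). Over all genes 10825 of 18193 were below 0. Of the 15 markers 6 had sleep-deprived arrays all below the controls and 1 all above, against 1792 and 709 of all 18193 genes. Of the uncalled markers Aspa, the aspartoacylase of oligodendrocytes, gave -0.58 (adjusted p = 0.1149) and Mog, a protein of the outer myelin surface, -0.36 (0.6421), each with the sleep-deprived arrays all below the controls, while Mbp, the myelin basic protein, gave -0.04 (0.9629). The mean level of the 15 markers was 9.01 to 9.04 in controls and 8.96, 8.75 and 8.97 after sleep deprivation, lowest on array 2, and the part of this shift in the Opalin result was not tested. Without sleep-deprived array 2 Opalin still fell by 0.97 (adjusted p = 2.769e-04).

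Tfrc, the transferrin receptor through which cells take up iron, fell by 0.58 ± 0.09, from 9.40, 9.36 and 9.35 to 8.86, 8.67 and 8.85 (adjusted p = 0.0132). Sytl2, an effector of vesicle docking, fell by 0.66 ± 0.10, from 7.74 ± 0.09 to 7.09 ± 0.21 (adjusted p = 0.0064). In both genes sleep-deprived array 2 was again the lowest. Cbln3, a secreted protein of cerebellar granule cells, fell by 0.63 ± 0.11 (adjusted p = 0.0403), and Parn, an enzyme that shortens poly(A) tails, by 0.52 ± 0.09 (0.0405). Bend3, a repressor bound to chromatin, fell by 0.63 ± 0.11 (adjusted p = 0.0365), and Tsks, named as a substrate of a testis kinase, by 0.63 ± 0.11 (0.0345). Tsks was dim, at 5.22 ± 0.09 in controls and 4.59 ± 0.08 after sleep deprivation. It gave 0.03 in C57BL/6J and -0.01 in AKR/J, with differences from DBA/2J of -0.66 ± 0.16 and -0.63 ± 0.16 that did not pass over all probe sets (adjusted p = 1.0000 for both). Tsks and Parn failed without any single array (adjusted p = 0.0629 to 0.2188). Bend3 and Cbln3 failed without control array 1 or 3 or sleep-deprived array 2 or 3 (0.0924 to 0.2537), and Bend3 also without sleep-deprived array 1 (0.1453). Tfrc failed without any 1 of the arrays other than sleep-deprived array 1 (0.0515 to 0.0845), and Sytl2 without control array 3 (0.0551).

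Genes known to be induced by interferon had lower estimates after sleep deprivation in DBA/2J, although 1 was called. Of 17 such genes, including the guanylate-binding proteins, 16 estimates were below 0 and 8 had sleep-deprived arrays all below the controls, with a median of -0.45. Over all 18193 genes 10825 estimates were below 0, and 1792 had no overlap in that direction. The list's median was -0.03 in C57BL/6J brain, -0.02 in AKR/J brain and -0.40 in DBA/2J liver. Whether the brain and liver pools came from the same mice was not examined, so the liver value may not be a separate observation. Gbp3, a guanylate-binding protein, was at 4.94, 4.94 and 4.50 in controls and at 4.22, 4.23 and 3.92 after sleep deprivation, a fall of 0.67 ± 0.12 (adjusted p = 0.0413). Its probe set was dim, below 5 on all 6 arrays. Ifit3, which acts against viral RNA, was at 8.10, 7.29 and 6.82 in controls and at 6.54, 6.69 and 6.11 after sleep deprivation (-0.96 ± 0.22, adjusted p = 0.1625). Oasl2, an oligoadenylate synthetase-like protein, ranged from 4.58 to 6.41 among controls and from 3.85 to 4.64 among sleep-deprived arrays, with overlap (-1.09 ± 0.30, adjusted p = 0.3055). Gbp2, another guanylate-binding protein, gave -0.86 ± 0.18 (adjusted p = 0.1038) without overlap. Ifit3 and Oasl2 varied among the control pools (SD 0.65 and 0.92), in both cases with array 1 highest and array 3 lowest.

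The mean level of the 17 interferon-induced genes was 5.77, 5.42 and 5.13 on the control arrays and 4.99, 5.03 and 4.72 on the sleep-deprived arrays. Microglia markers were at 7.20, 7.07 and 7.00 and at 7.10, 6.99 and 7.01 (11 genes, 0 called); they too were highest in control array 1, and their part in the result was not tested. Gbp3 failed without control array 1 or 2 (adjusted p = 0.2237 and 0.2499) and without sleep-deprived array 1, 2 or 3 (0.0948, 0.0667 and 0.1769). The number of called genes of the list was 0 without control array 1 or 2 or sleep-deprived array 1, 2 or 3, and 0 in a fit of the 6 arrays alone or of all 36. This number was also 0 with each array centred on its median, with only probe sets of a mean of at least 5, and without AKR/J controls 2 and 3. It was 4 without control array 3, 4 without that array and sleep-deprived array 2, and 7 without the 5 doubted brain arrays. Differences of Gbp3 from C57BL/6J and AKR/J were -0.64 ± 0.17 and -0.68 ± 0.17 (adjusted p = 1.0000 for both).

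**Figure D4:**
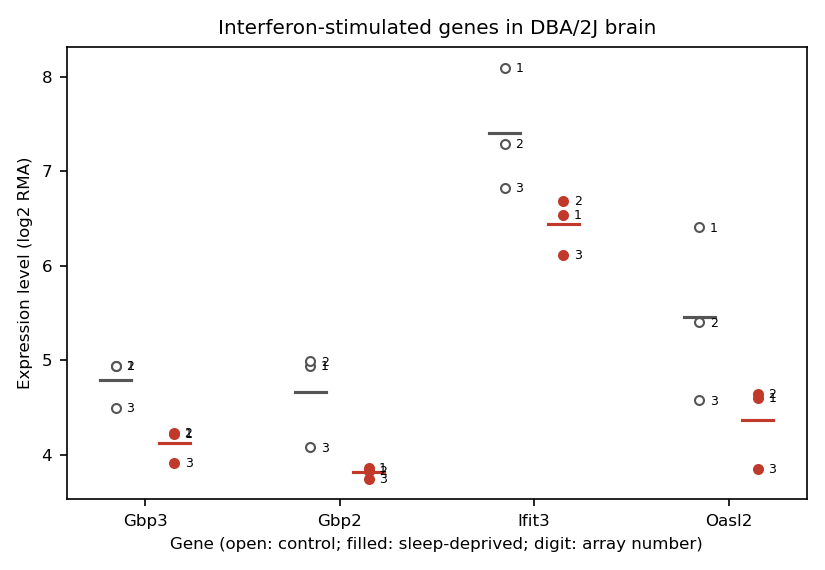
Levels of 4 interferon-induced genes (log2, vertical axis) on the 3 control arrays (open circles) and the 3 sleep-deprived arrays (filled circles) of DBA/2J brain, with array numbers and group means as lines. For Ifit3 and Oasl2 control array 1 is highest, at 8.10 and 6.41, and the groups overlap for Oasl2 only.

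Other gene groups held no called member on their representative probe set. The markers of astrocytes (12 genes, median -0.07), neurons (13, -0.02), endothelial cells (11, -0.08), microglia (11, -0.03), choroid plexus (10, 0.11) and red blood cells (4, 0.08) and the pituitary genes (8, -0.08) had medians between -0.08 and 0.11, where that of all genes was -0.03. Medians lay in the same range for GABA receptors (9 genes, -0.06), neuropeptides (19, -0.02), adenosine receptors and enzymes (11, -0.02) and MAP kinase phosphatases (12, 0.06). Of the 12 phosphatases 4 had sleep-deprived arrays all above the controls and 0 all below, against 709 and 1792 of all 18193 genes. Of 16 glutamate receptor and scaffold genes, with a median of -0.04, Homer1 alone was called, and on probe sets other than its representative. Cholesterol synthesis genes gave a median of -0.16 over 15 genes, with Insig1, the sterol-sensing regulator, at -0.56 (adjusted p = 0.8183) and Lss, the lanosterol synthase, at -0.43 (0.1248). The genes Jph3 (-0.10), Nptx2 (0.31) and Ptgs2 (0.22), which code for a junctional membrane protein, a synaptic pentraxin and a prostaglandin synthase, were not called.

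Changes were of like size on both sides of the threshold. The called genes closest to it were Gbp3, Chordc1 and Zbtb14 (adjusted p = 0.0413, 0.0439 and 0.0478). Just outside it lay a probe set of the mitochondrial ribosomal gene Mrps9 (-0.45, adjusted p = 0.0531), a second probe set of Serpinh1 (0.64, 0.0576) and Hnrnpdl, which codes for a nuclear RNA-binding protein (-0.56, 0.0576).

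The other strains were then used to ask whether the called changes were also seen in mice with separate controls. Those of AKR/J included arrays 2 and 3, whose source name gives ZT 0. All 32 probe sets higher in DBA/2J had estimates above 0 in C57BL/6J and in AKR/J, where 53.0% and 49.7% of all probe sets did. In C57BL/6J 3 of the 32 were called higher and in AKR/J 30, where 0.0377% and 0.3% of all probe sets were called in either direction. The strains share 1 SE for each probe set in this fit. Selection in DBA/2J thus favours probe sets of small SE, and the calls in the other strains are not independent of it. Their median change was 0.86 in DBA/2J, where the threshold had selected them, 0.58 in C57BL/6J and 0.91 in AKR/J. Of the 15 lower, 14 were below 0 in C57BL/6J (6 called) and 13 in AKR/J (7 called), with medians of -0.46 and -0.50 against the selected -0.67 in DBA/2J. The difference between the strains' responses was tested directly, and limma called 0 probe sets for DBA/2J against C57BL/6J (1217 at an unadjusted p under 0.05) and 0 for DBA/2J against AKR/J (1029). With a median SE of 0.17 for such a difference, these tests do not show that the strains respond alike. The smallest unadjusted p among named probe sets was that of Ffar2, a receptor for short-chain fatty acids, against C57BL/6J (-0.78 ± 0.17) and of a dim probe set of Mrpl15, a mitochondrial ribosomal gene, against AKR/J (0.87 ± 0.14, adjusted p = 0.4114). The brightest probe set of Mrpl15 gave -0.02 ± 0.12 for the same difference.

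In liver of the same strain, taken as a separate set of arrays, ER and cytosolic chaperones were compared next. Liver control array 1 stood out in the actin probe sets, with a 3' level above the 5' level by 2.16 (log2). The other DBA/2J liver arrays gave 0.96 to 1.17. The fit did not pair brain and liver arrays. Cytosolic heat shock genes gave a median of 0.57 in liver and 0.32 in brain, while ER genes gave 0.03 and 0.17. Hspa5 gave 0.14 in liver and its response was larger in brain by 0.88 ± 0.12 (adjusted p = 4.449e-04). Pdia6 differed by 0.78 ± 0.11 in the same direction (adjusted p = 7.494e-04). For Hsph1 the order was the opposite, with a rise of 2.75 in liver and 0.70 in brain on the same probe set (difference -2.06 ± 0.20, adjusted p = 5.900e-07). Hspa8 rose by 1.25 in liver, against 0.32 in brain (-0.93 ± 0.12, adjusted p = 1.856e-04). Hspa1b and Hspb1 rose in both tissues, with 1.63 and 1.33 in liver on the probe sets that gave 1.77 and 1.32 in brain.

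Homer1 (0.01 in liver) and Opalin (0.01 in liver) are chiefly neural genes, and both differed between the tissues (2.61 ± 0.32 and -1.02 ± 0.16, adjusted p = 5.317e-05 and 0.0018). Whether liver expresses Homer1 or Opalin was not tested, so their differences may only repeat the brain changes. Cirbp did not pass for a difference, at -1.48 in brain and -1.31 in liver (-0.18 ± 0.21, adjusted p = 0.8913). Of all probe sets 464 (1.03%) were called in DBA/2J liver, and 40 (0.0888%) differed between the tissues, of which 14 had the higher value in brain and 26 the higher value in liver. The number that differed between the tissues was 24 without sleep-deprived brain array 2 and control brain array 3. It was 32 without liver control array 1. Of the 32 probe sets that rose in brain, 8 were also called higher in liver, and of the 15 that fell, 4 were called lower.

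**Figure D5:**
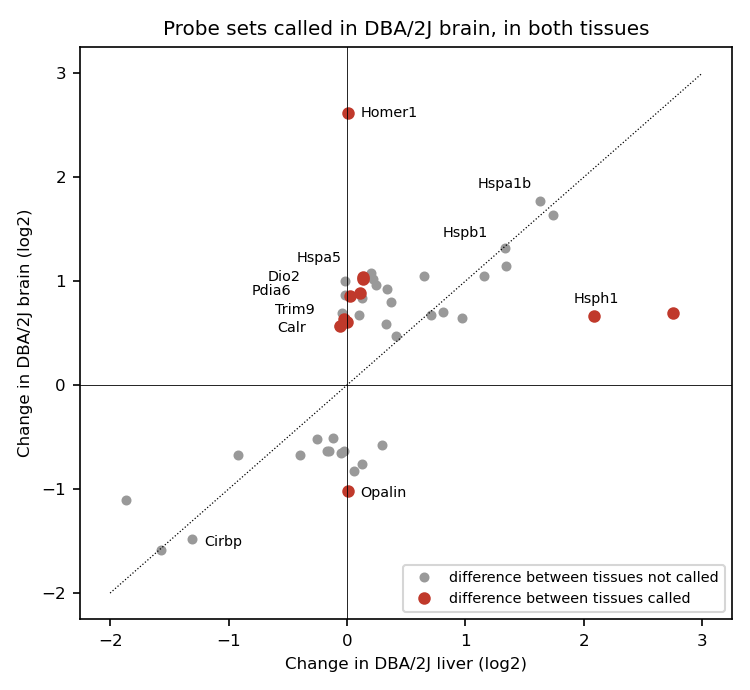
Changes after sleep deprivation of the probe sets called in DBA/2J brain (log2), in liver (horizontal axis) and in brain (vertical axis), with equal change as the dotted line and those whose difference between tissues was called in red. Homer1 (2.62 in brain, 0.01 in liver) lies above the line and Hsph1 below it.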

How the data were processed

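RNA from 36 pools, 18 of brain and 18 of liver, was hybridised to Affymetrix arrays. The values are log2 levels as the authors deposited them. The submitters' processing notes name RMA without a version. RMA removes background, equalises the distributions of the arrays and combines each probe set's probes into 1 level, so that weak probe sets show smaller changes and a shift of most genes at once would not be seen. Arrays have no sequencing depth, and 3 arrays per group limit the precision.

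Of 45101 probe sets, 64 controls were left out. Genes were named from the platform annotation, updated by gene identifier through a table of GRCm38.p6 (34945 probe sets with 1 symbol, of which 34741 matched by identifier; 932 with several; 9160 with none). No further normalisation was applied. A limma model (version 3.58.1, R 4.3.3) with a mean for each of 6 groups was fitted to the 18 brain arrays, and tissues were compared in a fit of 12 groups over 36 arrays. Tests are two-sided, with Benjamini-Hochberg adjustment over 45037 probe sets. P-values measure the spread between pools of 3 mice. No 2 arrays held identical values.

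The rule for named genes took every called gene with 1 symbol, the 5 probe sets next to the threshold, up to 3 members of each of 23 gene lists with the largest change, the 5 smallest p of each difference between strains or tissues, and a fixed set of genes; not all of these are described. The comparison, the genes and the lists were chosen with earlier results of these data known. Alternatives covered the arrays in the fit, scaling, dim probe sets, array weights, the variance model, replicate numbers, single arrays, arrays that stand apart and AKR/J controls 2 and 3, whose source name gives ZT 0.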

Additional observations from a re-analysis of the deposited data

Results flagged for a closer look

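The following genes are listed because their response to sleep deprivation in DBA/2J differed between brain and liver by limma's test of the difference itself, with Benjamini-Hochberg adjustment over all probe sets. Only genes already described above are listed. Of the 40 probe sets that differed, 14 had the higher value in brain and 26 the higher value in liver. Values are the brain change minus the liver change on the log2 scale. Genes with a higher value in brain were Homer1 (2.61, adjusted p = 5.317e-05), Hspa5 (0.88, 4.449e-04), Pdia6 (0.78, 7.494e-04), Trim9 (0.83, 0.0154) and Dio2 (0.90, 0.0495). In liver Homer1, Trim9 and Dio2 gave 0.01, 0.03 and 0.14. Calr differed in the same direction on all 3 of its probe sets (0.63, 0.66 and 0.61, adjusted p = 0.0106, 0.0116 and 0.0418). Genes with a lower value in brain were Hsph1 on both called probe sets (-2.06 and -1.42, adjusted p = 5.900e-07 and 5.317e-05), Hspa8 (-0.93, 1.856e-04) and Opalin (-1.02, 0.0018), of which Opalin fell in brain and gave 0.01 in liver. Whether liver expresses Homer1, Trim9, Dio2 or Opalin was not tested. A gene silent in liver would stay near 0 there whatever the treatment did. For these genes the difference may thus only repeat the brain change.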

How the results depend on the processing

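Main counts were 32 probe sets higher and 15 lower in DBA/2J brain, 0 for the difference from C57BL/6J, 0 for that from AKR/J and 40 for brain against liver. With only the arrays of each comparison in its fit (for a difference, those of both strains or both tissues), 7 were higher and 2 lower, 3 differed from AKR/J and 6 between tissues. With all 36 arrays, 53 were higher and 49 lower, and with quantile normalisation repeated 85 and 42. Array weights gave 333 and 226, with 3 for AKR/J and 120 between tissues. Leaving out the 3 arrays of narrow spread gave 88 higher. Leaving out the 5 doubted brain arrays gave 143 higher and 31 lower, and leaving out sleep-deprived array 2 and control array 3 gave 24 between tissues. Leaving out 1 array at a time gave 15 to 34 higher, 7 to 13 lower, 0 to 1 for AKR/J and 27 to 60 between tissues. The 1 call for AKR/J came without control array 3. Centring each array on its median gave 30 higher and 11 lower. The cause of these shifts was not tested. The difference from C57BL/6J had 0 calls under every alternative, and the remaining counts stayed within 1.5 times the main count.

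With a replicate block for the replicate number, 13 were higher and 7 lower, and 28 differed between tissues; 3 genes of the ER list and 2 of the heat shock list were higher, and Bdnf was not called. The deviations of same-numbered brain arrays correlated at 0.16, 0.21 and 0.04, against -0.20 to 0.11 for differently numbered ones. Whether the numbers mark pairs was not tested. The labels name no shared litter or day, so the main fit did not pair arrays by number. Of the 43 named called probe sets 36 missed the threshold under 1 or more alternatives, and 0 changed sign. The narrow spread of sleep-deprived array 2 and the number of arrays limit the precision, and no probe set's signal over background was given.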
